A study of Mus musculus with 2 samples.

Results

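Of 1280 HP1β peaks called in E14 embryonic stem cells (ESCs), 236 lay in exons or at the starts of mouse transcripts. A peak was counted here when its midpoint fell into an exon of any transcript, within 5 kb upstream of any transcript start, or within 1 kb on either side of one, according to the GENCODE vM1 annotation of the mm9 genome. The 236 peaks were 18.4% of the list (95% Wilson interval 16.4 to 20.7%). Of these, 92 had their midpoint in an exon, 135 lay in the 5 kb upstream of a start and 80 lay within 1 kb of a start, and some peaks met more than 1 of these criteria. The ChIP-Seq came from 1 library precipitated for HP1β and 1 input library, both of wild-type E14 ESCs (129P2/Ola strain), kept with LIF on gelatine per the labels and given no treatment. Chromatin was precipitated with the HP1β antibody 1MOD-1A9-AS (Euromedex), and the peaks are those that MACS called against input. There was no second ChIP library, so no value has a replicate error and no difference between kinds of peaks was tested. Read numbers are not part of the list, which leaves the depth behind each peak unknown, and the intervals given cover the counting of peaks only.

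HP1β belongs to the mammalian family of heterochromatin proteins. Its chromodomain binds histone H3 methylated at lysine 9, its chromoshadow domain forms dimers that recruit partner proteins, and it is known for its place in condensed heterochromatin around centromeres. HP1 proteins are also found on genes, and exons are set apart from introns by splice signals at their edges (AG before and GT after), by higher GC content and by nucleosomes and histone marks of their own.

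The coding exons that carried peaks are best seen in their sequence. The 4 windows printed here, up to 300 bp around the peak midpoint on mm9 and written 5′ to 3′ on the strand of the gene, show the coding exon peaks with the highest scores (Bicd1 and Herc1), a peak over a pair of short exons (Prim1) and the exon with an uncommon splice signal (Itpr1). Capitals mark coding bases and lower case marks intron. The windows are chr6:149460318-149460617 for Bicd1, chr9:66328609-66328908 for Herc1, chr10:127455064-127455363 for Prim1 and chr6:108432839-108433138 for Itpr1.
Bicd1: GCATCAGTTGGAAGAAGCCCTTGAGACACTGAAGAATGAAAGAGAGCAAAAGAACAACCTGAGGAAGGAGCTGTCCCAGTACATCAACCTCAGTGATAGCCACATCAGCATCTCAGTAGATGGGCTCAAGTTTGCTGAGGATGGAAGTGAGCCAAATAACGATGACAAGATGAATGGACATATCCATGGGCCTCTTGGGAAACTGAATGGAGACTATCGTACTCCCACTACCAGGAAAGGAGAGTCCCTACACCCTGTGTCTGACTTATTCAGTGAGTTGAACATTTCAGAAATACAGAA
Herc1: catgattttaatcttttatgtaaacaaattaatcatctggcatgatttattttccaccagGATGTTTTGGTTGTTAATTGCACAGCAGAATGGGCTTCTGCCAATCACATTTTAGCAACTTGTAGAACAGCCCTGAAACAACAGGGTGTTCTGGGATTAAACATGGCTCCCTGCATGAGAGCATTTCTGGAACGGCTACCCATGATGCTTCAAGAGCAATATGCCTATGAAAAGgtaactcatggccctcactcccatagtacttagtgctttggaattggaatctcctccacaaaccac
Prim1: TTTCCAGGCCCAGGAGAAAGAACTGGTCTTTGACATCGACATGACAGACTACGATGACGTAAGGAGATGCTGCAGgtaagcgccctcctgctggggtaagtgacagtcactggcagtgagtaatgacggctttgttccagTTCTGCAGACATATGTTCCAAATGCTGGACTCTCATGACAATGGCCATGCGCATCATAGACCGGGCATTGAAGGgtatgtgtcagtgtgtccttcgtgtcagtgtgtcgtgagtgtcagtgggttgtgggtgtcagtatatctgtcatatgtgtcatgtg
Itpr1: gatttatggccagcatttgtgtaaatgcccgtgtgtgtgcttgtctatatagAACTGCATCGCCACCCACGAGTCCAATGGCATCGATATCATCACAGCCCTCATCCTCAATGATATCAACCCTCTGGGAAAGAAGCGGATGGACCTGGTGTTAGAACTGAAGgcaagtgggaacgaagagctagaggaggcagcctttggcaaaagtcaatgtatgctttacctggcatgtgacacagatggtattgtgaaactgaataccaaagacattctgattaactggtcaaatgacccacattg

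In Bicd1 all 300 bases were coding. In Herc1 the 174 coding bases were a complete exon between ag and gt. The Itpr1 exon of 111 bases ended before gc in place of gt, and the peak midpoint was exonic in 1 of the 5 transcripts over it. The Prim1 window held 149 coding bases in 2 stretches and 9 CpG, against 2 in the Bicd1 window, 1 in Herc1 and 6 in Itpr1.

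The 4 windows outside exons given next are from the peaks near starts with the highest scores at protein-coding genes and unique sequence. They are chr13:97916284-97916583 at Gfm2, chr8:96916585-96916884 at Herpud1, chr7:35696369-35696668 at Pepd and chr6:30342740-30343007 at Zc3hc1 (the whole peak), and the capitals mark CG.
Gfm2: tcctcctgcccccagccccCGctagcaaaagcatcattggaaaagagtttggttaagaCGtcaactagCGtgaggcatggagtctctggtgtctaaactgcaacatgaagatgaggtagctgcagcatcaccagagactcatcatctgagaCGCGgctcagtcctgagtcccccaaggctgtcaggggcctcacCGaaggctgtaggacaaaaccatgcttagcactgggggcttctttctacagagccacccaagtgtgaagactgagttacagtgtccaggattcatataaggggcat
Herpud1: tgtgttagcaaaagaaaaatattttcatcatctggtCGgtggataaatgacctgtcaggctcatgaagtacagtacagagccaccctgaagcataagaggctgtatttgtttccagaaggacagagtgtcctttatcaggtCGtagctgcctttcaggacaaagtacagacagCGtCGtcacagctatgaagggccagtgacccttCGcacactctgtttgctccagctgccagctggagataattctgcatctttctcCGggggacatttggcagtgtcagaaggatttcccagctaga
Pepd: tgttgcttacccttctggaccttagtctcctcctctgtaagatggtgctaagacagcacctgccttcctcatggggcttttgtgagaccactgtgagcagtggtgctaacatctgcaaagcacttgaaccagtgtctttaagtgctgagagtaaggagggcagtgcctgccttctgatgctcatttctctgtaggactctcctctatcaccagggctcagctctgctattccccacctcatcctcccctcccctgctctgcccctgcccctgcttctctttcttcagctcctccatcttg
Zc3hc1: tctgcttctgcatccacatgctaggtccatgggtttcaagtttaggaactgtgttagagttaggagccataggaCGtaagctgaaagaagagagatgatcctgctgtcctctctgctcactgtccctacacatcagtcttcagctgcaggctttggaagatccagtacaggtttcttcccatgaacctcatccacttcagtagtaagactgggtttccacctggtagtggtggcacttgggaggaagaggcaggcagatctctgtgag

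The number of CG dinucleotides in these windows was 6 at Gfm2, 6 at Herpud1, 0 at Pepd and 1 at Zc3hc1. The Pepd and Zc3hc1 peaks lay before the outer start of their gene, and the Gfm2 and Herpud1 peaks lay inside the gene before the start of a shorter transcript.

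The MACS score, defined as 10 × −log10 of p, was much the same in these peaks as in the whole list. Its median was 32.97 in the 236 peaks (95% interval of the median 32.23 to 33.66), 33.21 in all 1280 peaks and 33.26 in the 1044 others. Each peak was then given 1 place, first exon, then start within 1 kb, then upstream. The medians were 33.03 in the 92 exon peaks, 32.40 in the 60 peaks outside exons within 1 kb of a start and 33.14 in the 84 peaks outside exons that lay 1 to 5 kb upstream. A score of 40 or more was reached by 28 of the 236 peaks (11.9%), where 13.6% of the whole list reached it. It was reached by 7 of the 92 exon peaks (7.61%, 95% Wilson interval 3.73 to 14.9%), 8 of the 60 start peaks and 13 of the 84 upstream peaks, so the exon peaks had the smallest share and their interval included the share of the whole list. A score of 50 or more was reached by 5 of the 236 peaks (2.12%) against 1.88% of the whole list. These 5 peaks were in Bicd1 (87.43, the highest score of all 1280 peaks), upstream of a transcript of Gfm2 (64.49), upstream of the pseudogene Gm13036 (53.22), in Herc1 (51.23) and at the start of the pseudogene Gm14599 (51.18). Of the 236 peaks, 57 were under 31. The widths also matched, with a median of 251.5 bp (76 to 1237 bp) in the 236 peaks and 250 bp in the list.

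**Figure D1:**
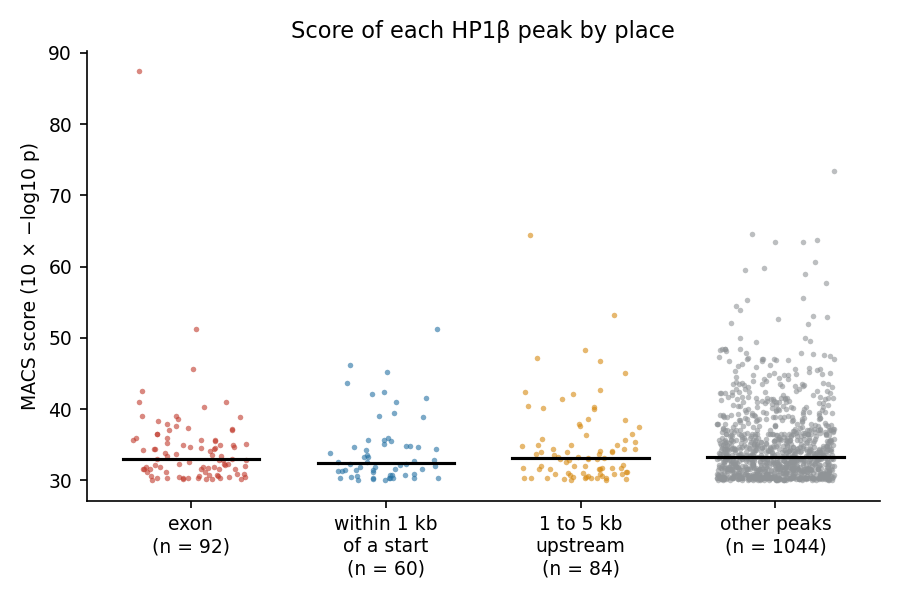
MACS score (10 times −log10 of p, vertical axis) of every HP1β peak, by place: exon (n = 92), within 1 kb of a start outside exons (n = 60), 1 to 5 kb upstream outside exons (n = 84) and all other peaks (n = 1044), with 1 point per peak and a line at each median. The 4 medians lie between 32.40 and 33.26, and the single highest point is the exon peak of Bicd1 at 87.43.

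Internal exons of protein-coding genes held the largest number of exon peaks. For each peak the transcript with the longest coding sequence over the midpoint was taken. By this rule 49 of the 92 peaks were in an internal exon, 32 in the last, 8 in the first and 3 in a transcript with a single exon. Among 350981 annotated exons 192176 are internal, 72106 last, 73582 first and 13117 single. These are counts of exons, whereas a midpoint samples bases, so the shares are not fully alike and were not tested. Coding sequence held 55 midpoints (59.8%, 95% Wilson interval 49.6 to 69.2%), the 3′ untranslated part held 15, the 5′ untranslated part 2 and exons of noncoding transcripts 20. Over all annotated exons, 41.2% of the bases are coding in at least 1 transcript. The genes were protein-coding for 87 peaks, and the other 5 were in 2 pseudogenes, 2 genes of the processed transcript class and 1 lincRNA. Of all 37310 annotated genes 22380 are protein-coding, which is a share of genes and not of exonic bases.

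Coding internal exons were the largest class, with 46 peaks and scores from 30.03 to 87.43 (median 33.28). The exon was usually shorter than the peak over it. Its length ran from 54 to 3587 bp with a median of 187 bp, 36 of the 46 exons were shorter than the peak and 24 lay wholly inside it. The median share of a peak that was exon was 61.7% (20.8 to 100%), and the median distance of the peak midpoint from the middle of the exon was 49.25 bp, so most of these peaks also held flanking intron. All 46 exons were preceded by AG, 45 were followed by GT and 1, in Itpr1, by GC. These bases were read at the annotated edges of the exons, so they describe the annotation and not the peaks. Their share over all annotated internal exons was not counted. Weighted by base, as a midpoint samples them, all annotated internal exons have a median length of 173 bp, and the internal exons with a peak, noncoding ones included, had a median of 191 bp.

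The strongest exon peak was in exon 4 of 10 of Bicd1 (chr6:149460257-149460678), a gene for an adaptor that links the dynein motor to its cargo. Its score was 87.43, the exon was 426 bp long and 90.8% of the peak was exonic. The next was in exon 60 of 78 of Herc1 (chr9:66328556-66328961, score 51.23), a very large ubiquitin ligase, whose exon of 174 bp took up 42.9% of the peak. The other coding peaks among the 10 highest exon peaks were much closer to the median. They were in exon 2 of 8 of Gm7534 (40.27), exon 58 of 85 of Mycbp2 (39.00), a ubiquitin ligase of axons and synapses, exon 21 of 39 of Abcc8 (39.00), the sulphonylurea receptor subunit of the potassium channel of beta cells, and exon 5 of 16 of Aasdh (38.87). In Abcc8 the exon of 81 bp was a small part of the peak (33.3%), whereas in Mycbp2 the peak lay wholly in an exon of 1644 bp.

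A few exon peaks were in genes of RNA processing or chromatin, although none was among the 10 highest exon peaks. Those named are examples, chosen after their values were seen, because the gene lists below did not hold them. Of the 55 splicing factors and 22 enzymes of H3K9 and H3K36 methylation in those lists, 0 had a peak in an exon or at a start. How many annotated genes are of RNA processing or chromatin was not counted. In RNA processing, Sfrs18, an SR-related splicing protein, had a peak (33.85) over the shortest exon of all, exon 9 of 12 with 54 bp. Smg1, the kinase of nonsense-mediated decay, had one in exon 50 of 63 (34.97), Cdk13, a kinase of transcription elongation, in exon 11 of 14 (32.79) and Prpf40b, a protein related to the U1 snRNP, in an internal exon of a retained-intron transcript (35.95). In chromatin, Baz2b, a bromodomain protein, had a peak in exon 28 of 36 (32.23) and Top1, DNA topoisomerase I, in exon 15 of 21 (37.10). Ezh2 also had one, in coding exon 9 of 20 (31.17).

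Peaks in last exons were mostly outside coding sequence and inside long exons. Of the 32, 15 were in the 3′ untranslated part, 11 in noncoding transcripts and 6 in coding sequence, and the last exons had a median length of 2338 bp, where the median over annotated last exons weighted by base is 1835 bp. Those with the highest scores were in Sgk3 (42.51, exon 18 of 18), a kinase of phosphoinositide signalling, Gigyf2 (41.01, last exon of a noncoding transcript), a repressor of translation, and Fam63b (40.99, exon 9 of 9), a deubiquitinase whose last exon of 6276 bp was the longest exon with a peak. The peak in the last exon of Col10a1, the collagen X gene of growth-plate cartilage, was at chr10:34115898-34116065 with a score of 34.92, in exon 3 of 3 of 2898 bp. The exon peak with the highest GC content, 62.8%, was in the last exon of Cacng2, a subunit that guides AMPA receptors (30.19).

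First exons held 8 peaks, and 1 of these midpoints was in coding sequence. That 1 was in Mcpt8, a mast cell protease (34.53, exon of 84 bp), and the 2 in 5′ untranslated sequence were in Gm15319 (34.64) and Itln1, the lectin intelectin (31.56). The highest score was in Rpsa-ps3, a pseudogene of the ribosomal protein Rpsa (45.69, chr11:22286395-22286602). Single-exon transcripts with a peak were those of Rep15 (32.09), an effector of Rab15, Chrm5 (31.64), the muscarinic M5 receptor, and the pseudogene Gm13223 (34.33).

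Which transcript is taken matters for some of these peaks. The 92 peaks comprised 53 that crossed the edge of the exon and 39 wholly inside it. More than 1 transcript covered the midpoint of 67 peaks, of which 43 (64.2%) were exonic in all of them and 17 (25.4%) in 1 alone. Over all exonic bases under several transcripts these shares are 62.2% and 27.3%. Retained-intron or processed transcripts of protein-coding genes gave 15 of the 92 exon peaks, 10 of them in the last exon of such a transcript, as in Tia1 (31.92), a regulator of splicing. In 2 cases the midpoint was in exons of 2 genes, as in Tmtc4 with 4930594M22Rik.

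**Figure D2:**
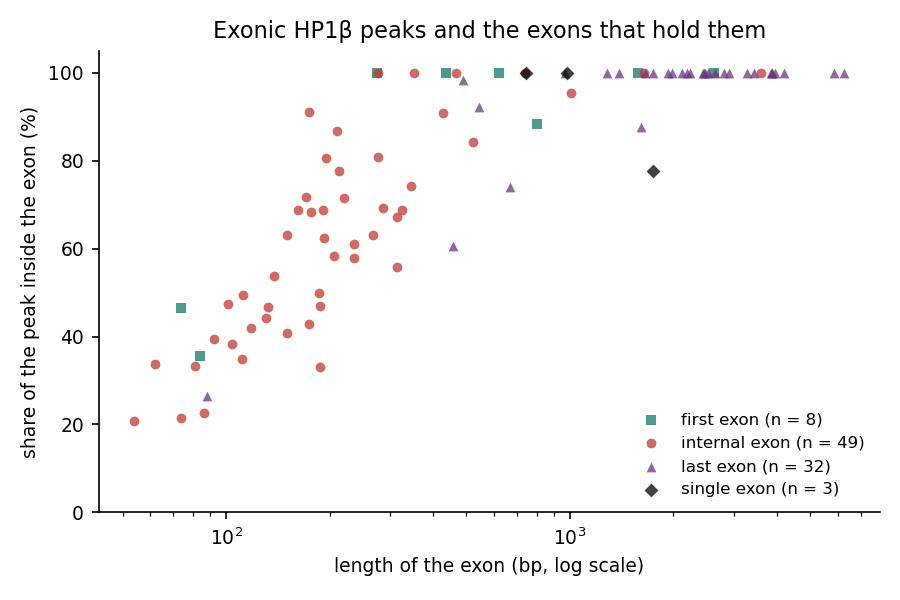
Share of each exonic peak that lies inside the exon (%, vertical axis) against the length of that exon (bp, log scale, horizontal axis), with 1 point per peak in first (n = 8), internal (n = 49), last (n = 32) and single (n = 3) exons. Points at 100% are peaks wholly inside an exon, most of them last exons of over 1000 bp, and internal exons fall to the lower left down to 54 bp in Sfrs18.

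Peaks within 1 kb of a start lay mostly at starts inside genes, where most annotated starts are. Distances are given from the start to the peak midpoint, and negative values are upstream. The nearest start was the outer start of its gene (the start farthest upstream) for 30 of the 80 peaks (37.5%, 95% Wilson interval 27.7 to 48.4%) and a start of a shorter transcript for 50. Among the 86960 distinct starts of the annotation 42.9% are outer starts, a share inside that interval. The peaks did not gather at a fixed distance: 17 lay from −1000 to −500 bp, 20 from −500 to 0 bp, 24 from 0 to 500 bp and 19 from 500 to 1000 bp. In the last of these intervals 18 of the 19 starts were inner ones. Only peaks up to 1000 bp downstream were taken, so the counts end there by rule.

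Outer starts of protein-coding genes within 1 kb numbered 11. They belonged to Pepd, C130026I21Rik, Gm15319, Mcpt8, 4921524J17Rik, Fhl2, Rep15, Chrm5, Itln1, Gys2 and Olfr781, and except for Pepd their scores were from 30.31 to 35.95. The Pepd peak (chr7:35696351-35696686, 45.19, at −879 bp) stood before the gene for prolidase, the enzyme that splits dipeptides ending in proline. Of the other 19 outer starts 9 were of small RNAs, 9 of pseudogenes and 1 of a long noncoding RNA. The small RNAs included a Y_RNA gene (39.07, at −317 bp), copies of SNORA17 at 303 and 222 bp (34.82 and 32.63) and a copy of U6 at −11 bp (32.53), the shortest distance of all. SNORA17 has 611 annotated copies and U6 936.

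Several of the other peaks with high scores near starts were inside genes. At Herpud1, which encodes a membrane protein of the endoplasmic reticulum that takes part in protein degradation, the peak (46.23) was at −696 bp from a retained-intron transcript and 6397 bp downstream of the outer start. At Stard9 (41.61, at −785 bp), a mitotic kinesin, and Cspp1 (41.04, at −574 bp), a protein of centrosome and spindle, the outer start was 35029 and 36068 bp away. Gm14443 (42.45) had its peak at −41 bp, Bicd1 (43.64) at 742 bp and 2410141K09Rik (42.10) at −664 bp from an inner start. The remaining peaks among the 10 highest were outside genes, before the outer starts of the pseudogenes Gm14599 (51.18, at −797 bp) and Gm13228 (39.50, at −310 bp).

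Within 1 kb no peak was shared by the starts of a pair of genes, although some peaks were within the 5 kb upstream. The peak at −310 bp from Gm13228, for example, was also at −4818 bp from Gm13222. For 0 of the 80 peaks were starts of more than 1 gene, or starts on both strands, within 1 kb of the midpoint (upper 95% Wilson bound 4.58%). Of all annotated starts 16.5% have a start of another gene within 1 kb and 13.9% have one on the other strand. The 16.5% and the 13.9% are shares of starts and not of peaks, and the difference was not tested. The transcript at the nearest start was protein-coding in 29 cases (36.25%, against 52.9% of all starts). It was a retained intron in 15 (18.8%, against 13.0%) and a processed transcript in 13 (16.25%, against 14.3%). An annotated start can count under several types, whereas each peak was given 1, so these shares are not fully alike and were not tested.

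**Figure D3:**
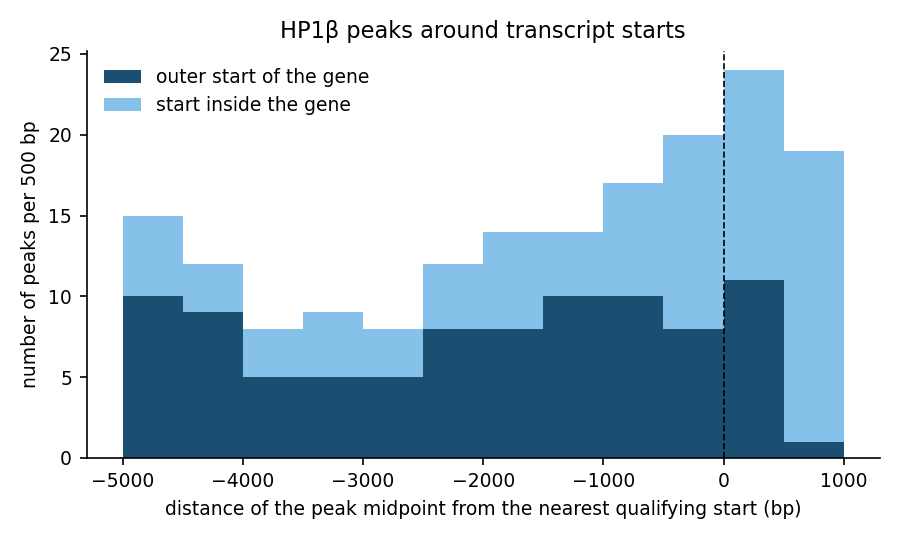
Number of HP1β peaks per 500 bp (vertical axis) by distance of the midpoint from the nearest qualifying start (bp, horizontal axis, negative upstream), stacked by outer starts and starts inside the gene, for all peaks within 5 kb upstream or 1 kb downstream. Between 500 and 1000 bp there was 1 outer start among 19, and the dashed line is the start itself.

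Farther upstream, most peaks lay before outer starts, many of them of pseudogenes. Of the 92 peaks that lay over 1 kb upstream of their nearest qualifying start, 8 of which were in exons of another transcript, 60 (65.2%) were before an outer start and 32 before an inner one. Among all annotated starts 42.9% are outer. Distances ran from −4968 bp (Arpp19, a regulator of a mitotic phosphatase, 39.99) to −1038 bp (1700007G11Rik). Protein-coding genes were named for 53 peaks. Of these, 22 were before an outer start and 31 before an inner one. Pseudogenes had 20 of the 60 outer starts, and they are 5201 of the 37310 annotated genes. Of the 92 starts 15 (16.3%) were of transcribed processed pseudogenes, where 4.30% of all starts are of that type. Among these pseudogenes, Gm13036, Gm15951, Gm13246, Gm13245 and Vmn2r-ps19 lay in 1 region with many peaks, chromosome 4 from 145 to 150 Mb. The 42.9% and the 4.30% are shares of starts and not of the sequence upstream of them, and the differences were not tested.

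The highest of the upstream peaks outside exons was at Gfm2 (chr13:97916205-97916662, 64.49), which encodes a mitochondrial factor of ribosome recycling. It was at −3871 bp from a nonsense-mediated decay transcript and 8542 bp downstream of the outer start. Among the 10 highest outside exons, peaks before protein-coding outer starts were those of Zc3hc1 (45.11, at −1846 bp), a nuclear zinc finger protein of the cell cycle, 2310015B20Rik (42.67, at −2857 bp) and Golph3l (41.46, at −4462 bp), a Golgi protein. The other 6 were before outer starts of pseudogenes or noncoding genes. These were Gm13036 (53.22, at −2323 bp), Gm15951 (48.32, at −4434 bp), RP23-324B17.1 (47.15, at −1901 bp), Gm13246 (46.69, at −3647 bp), Gm16889 (42.40, at −4811 bp) and AC152164.1 (42.05, at −4305 bp). Gm13036 had the widest peak of all 236 (1237 bp), and AC152164.1 had the lowest GC content (30.3%) and, with Gm12174, the narrowest peak (76 bp). Just outside the limits, at −5002 bp from Gm11747 the score was 38.50, and at 1036 bp from Gm9790 it was 36.03.

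Starts with a peak had a lower median GC content than starts as a whole. Starts of mouse genes often lie in CpG islands, stretches of high GC content and many CpG. In the 200 bp around the nearest start of the 80 start peaks the median GC content was 43.75% and 4 starts (5%) were over 60%. Around all 86846 starts with full sequence the median was 55.5% (quartiles 47 and 65%) and 36.7% were over 60%, and these starts held a median of 6 CpG against 2 at the starts with a peak. At the peaks themselves, 0 of the 60 start peaks outside exons and 0 of the 84 upstream peaks had over 60% GC in the 200 bp around the midpoint, whereas 4 of the 92 exon peaks (4.35%) and 7 of the 1044 other peaks (0.670%) did. Of the 236 peaks 0 met the sequence criteria of a CpG island (GC over 50%, observed to expected CpG over 0.6, at least 200 bp, upper 95% Wilson bound 1.60%), and 3 of the 1280 did.

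Exon peaks had higher medians of GC and CpG than the list. Whole peaks had a median GC content of 49.1% in exons and 50.4% in coding sequence, where the 236 peaks had 47.5% and the whole list 47.4%. Over 55% GC was found in 14 of the 92 exon peaks (15.2%), in 4 of the 80 start peaks and in 58 of 1280 (4.53%). The median number of CpG was 5 in coding exon peaks and 2 in the list. Coding internal exons of the whole annotation were close to these values, as the 200 bp around the middle of all 172459 coding internal exons had a median of 50% GC (quartiles 43 and 55.5%) and 4 CpG. The 46 coding internal exon peaks had 51% (47 and 54.5%) and 4 CpG, with 1 of the 46 over 60% against 7.92% of the exons.

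**Figure D4:**
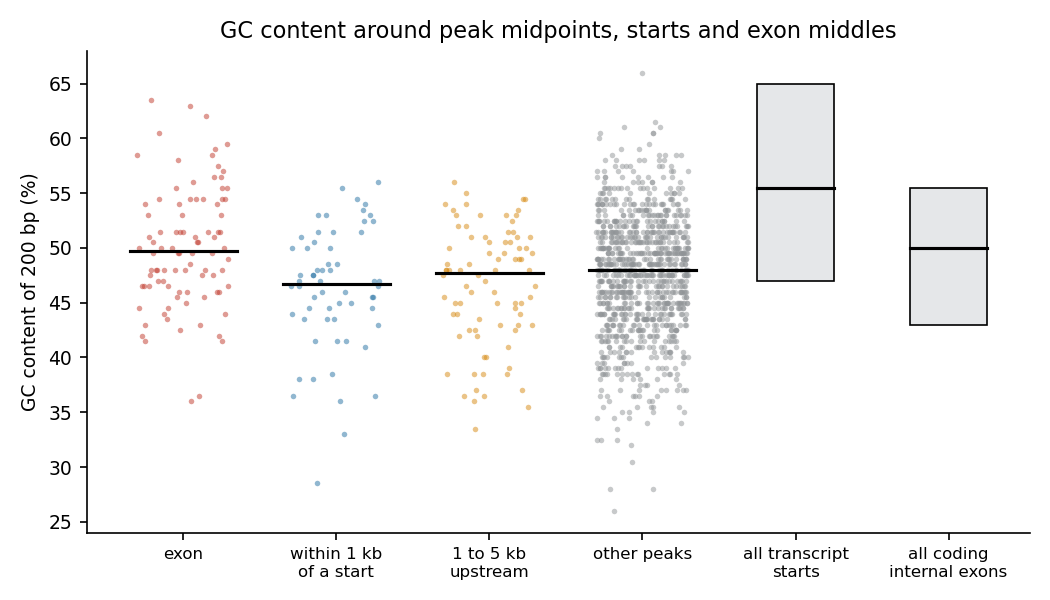
GC content (%) of the 200 bp around the midpoint of each peak, 1 point per peak with a line at the median, for exon peaks, peaks within 1 kb of a start, peaks 1 to 5 kb upstream and other peaks, beside boxes (quartiles and median) for all transcript starts and all coding internal exons. The peaks near starts have a median of 46.75% around their midpoints, which lie up to 1 kb from a start. The box for all starts, with a lower quartile of 47%, is for the sequence around the starts themselves. The exon peaks (49.75%) lie near the median of 50% for coding internal exons.

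Short motifs were as frequent in these peaks as in the list. Within 100 bp of the midpoint, on either strand, the TATA motif TATAAA was found in 19 of the 236 peaks (8.05%) and 8.13% of all peaks, and the CCAAT motif in 61 (25.8%) and 25.9%. The GC box GGGCGG was in 5 (2.12%) against 1.80%, and TGCCGC was in 3 (1.27%) against 1.17%. None of these motifs contains another of them.

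Some of the peaks lay in sequence that occurs more than once in the genome. All 50-mers of the peak were unique in 200 of the 236 peaks (84.7%) and in 87.9% of the list, and under 80% were unique in 14 (5.93%) and in 5.63%. By place, the latter were 4 of 92 exon peaks, 8 of 80 start peaks and 10 of 135 upstream peaks. The peaks at C130026I21Rik and at Gm16025 with Gm7281 held no unique 50-mer at all, and at Gm15319 2.13% were unique, at Gm12174 28.9%, at AC152164.1 36.8% and at Gm14599 38.5%. The reads had been kept only where they aligned uniquely, and where these genes are named the reads could also belong to a near copy.

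The share of peaks in exons and at starts varied between chromosomes. It was highest on chromosome 4 (25 of 74 peaks, 33.8%) and chromosome 2 (27 of 86, 31.4%), and lowest on chromosome Y (0 of 12) and chromosome 16 (2 of 37, 5.41%). On chromosome 4, 11 of the 25 lay between 145 and 150 Mb, where 22 peaks in all were found, and 9 of the 11 were upstream of a start. These included the peaks of Gm13036, Gm15951, Gm13246, Gm16889 and Gm13228. The end of chromosome 6 from 105 Mb, which holds Bicd1, had 125 peaks of the list, of which 18 (14.4%) were in exons or at starts. On chromosome 1 from 115 to 135 Mb there were 2 among 38. Without these 3 regions, which have many peaks for their length, 205 of the 236 peaks remained.

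**Figure D5:**
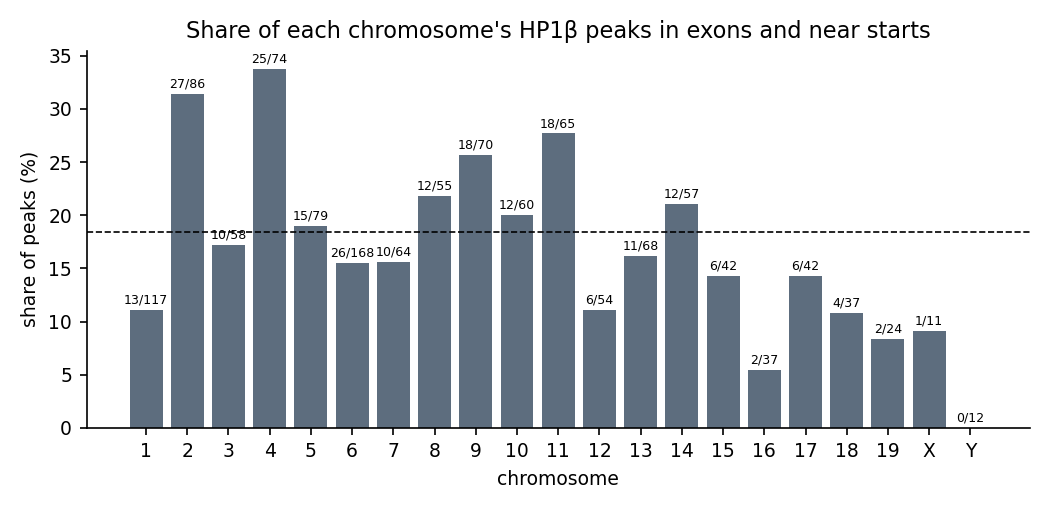
Share (%) of the HP1β peaks of each chromosome that lay in exons or at starts, with the number of such peaks over the number of all peaks above each bar, and a dashed line at the share in the whole list (18.4%). Chromosomes 4 and 2 stand highest and chromosome Y, with 0 of 12, lowest.

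The peaks named 243 genes, 0.651% of the 37310 annotated genes, and 176 of them were protein-coding (0.786% of 22380). A further 31 were pseudogenes, 11 processed transcripts, 10 snRNAs, 7 lincRNAs and 5 snoRNAs. More than 1 peak was found in 6 genes. Bicd1 had 3, in exon 4 (87.43), at an inner start (43.64) and in the last exon (37.57), of which the last was coding. 2410141K09Rik also had 3 (42.10, 32.90 and 31.72), in sequence of which 58.1 to 80% of 50-mers were unique. Mycbp2 had 2 in coding exons (39.00 and 34.53). Stt3a, a catalytic subunit of the oligosaccharyltransferase, had 2 at inner starts (31.47 and 31.11), RP23-324B17.1 had 2 (47.15 and 30.71) and the pseudogene Gm13222 had 2 upstream (39.50 and 32.93).

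The listed genes of heterochromatin and pluripotency had no peak of this kind. The lists leave out other chromatin genes, such as Ezh2, named above for its exon peak. None of 19 HP1 proteins and partners, 22 enzymes of H3K9 and H3K36 methylation, 13 genes of DNA methylation or demethylation, 27 pluripotency factors and 70 histone genes had a peak in an exon or at a start. At the share of all protein-coding genes, 0.786%, less than 1 gene would be counted in each of these lists, so that 0 does not set them apart. Of 55 splicing factors 0 had such a peak, and Prpf6 and Snrpd1 had a peak elsewhere in the gene. Among 33 imprinted genes, Trappc9 had a peak in its last exon, in coding sequence (33.03). Among genes named by family, 3 of 376 zinc finger genes of the Zfp series had a peak (Zfp345 and Zfp101 upstream, 32.06 and 31.60, and Zfp91 in a noncoding transcript, 30.19).

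Families of receptors, transporters and collagens can be set beside the share of all protein-coding genes, 0.786%. Of 1251 olfactory receptor genes 3 (0.240%) had a peak (Olfr781, Olfr212 and Olfr924, from 30.31 to 31.19), and of 437 vomeronasal receptor genes 1 (0.229%) did (Vmn2r-ps19, 33.23). Solute carriers had peaks in 7 of 358 genes (1.96%), a larger share, which was not tested. Of these, Slc6a4, the serotonin transporter (30.90), and Slc39a11, a zinc transporter (31.74), had theirs in internal coding exons, Slc39a9 (33.47) and Slc44a5 (34.64) in last exons, and Slc26a5 (32.20), Slc25a42 (30.60) and Slc30a4 (31.55) before starts. Among 44 collagens 1, Col10a1, had a peak (2.27%).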

How the data were processed

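HP1β ChIP-Seq was available for 1 ChIP library and 1 input library of E14 ESCs. The authors aligned reads with Bowtie to mm9, keeping unique alignments, called peaks with MACS 1.4 against input, and deposited a list of 1280 peaks with a score for each (10 × −log10 of p). The list holds no read numbers, so the depth and the precision it gives are unknown. The lowest score is 30.01, so weaker peaks were not listed. How many of the listed peaks are false calls is not known.

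Peaks were placed by midpoint on GENCODE vM1 and NCBIM37 (mm9), with coordinates counted from 1. The exon reported was that of the protein-coding transcript with the longest coding sequence where there was one, and the start reported was the nearest that met the limits. GC content, CpG, motifs and 50-mers with a single exact match in the assembly, either strand counted, were read from the genome. Nothing was tested between kinds of peaks, and medians and counts are set beside those of the whole list. Wilson intervals are at 95%. The placement step was tested on simulated peaks.

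Named were the 10 highest scores in each place, genes with more than 1 peak, genes of the lists (HP1 proteins and partners, H3K9 and H3K36 enzymes, DNA methylation, pluripotency, splicing, imprinting, and families by symbol), a gene the study shows as an example of HP1β binding (Col10a1), and the extremes of GC content, width, exon length and distance. The peaks and lists were chosen with earlier results of these data known. The labels describe a commercial medium and dinucleosomal fragments, and the methods differ in both. The input library was not analysed apart from its use in the peak calling. Alternatives changed the overlap, the distances, the transcripts, the score limit and the chromosomes. Python 3.11.15, numpy 2.4.6, pandas 2.3.3, scipy 1.17.1, pysam 0.24.0, numba 0.67.0 and matplotlib 3.10.9 were used.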

Additional observations from a re-analysis of the deposited data

How the results depend on the processing

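Of 35 alternatives for the 6 summary values, 6 of them added after the data were seen, 19 left the value near the reported one and 16 moved it. When 1 bp of overlap was enough, the exon peaks rose from 92 to 140, and with coding sequence alone they were 55. With 1 start per gene the upstream peaks numbered 79 and the start peaks 32, in place of 135 and 80. An upstream distance of 1 kb left 38 upstream peaks and 152 of the 236 in all, and 500 bp around starts left 44 start peaks. At a score of 40 or more there were 28 in all, 7 in exons, 22 upstream and 10 at starts, with a median score of 42.59 and a median GC content of 44.61%. That limit lowers the counts and raises the median score by rule. The median score was 32.08 in narrower and 33.91 in wider peaks, and the median GC content was 49.07% in exons. Among the values that stayed near, the 236 peaks were 275 with 1 bp of overlap, 182 with protein-coding genes alone, 173 with 1 start per gene, 235 on autosomes and 222 with at least 80% unique 50-mers. No paired analysis was possible because the list comes from 1 ChIP library. Replicates could not be left out, and a second library, read depth and expression of these genes were not analysed here.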

Other observations

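Coding exon peaks were often in genes with very many exons, a pattern noticed after the values were seen and not tested. Of the 55 coding exon peaks, 11 (20%) were in transcripts of at least 50 exons, whereas genes whose longest coding transcript has that many hold 4.91% of coding bases and are 160 of 22380 protein-coding genes. The 11 peaks were in 10 genes. They were Dnahc8 (38.35, exon 26 of 93) and Hydin (33.03, exon 61 of 87), both of motile cilia, Mycbp2 with 2 peaks and Herc1, both ubiquitin ligases, Itpr1 (35.11, exon 48 of 62), the inositol trisphosphate receptor, Smg1, Otogl (30.63), Fry (30.46), Zan (30.38), a sperm protein of egg binding, and Lrp2 (30.15), an endocytic receptor. Except for Herc1 (51.23) their scores were under 40. In Itpr1 the midpoint was exonic in 1 of the 5 transcripts over it.

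Peaks also lay close to one another at about the rate of the list. Another HP1β peak was found within 10 kb of 21 of the 236 peaks (8.90%), of 72 of the 1044 others (6.90%) and of 7.27% of all peaks.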
